A study of Mus musculus with 2 samples.

Results

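The interleukin 1 receptor gene cluster is a run of related immune receptor genes on mouse chromosome 1. Its contacts were followed over chr1:39400001-41200000 of GRCm38, a stretch touched by 17 of the 497 protein-coding genes in the part of the chromosome that was compared. The 7 genes followed here all lie on the + strand. In order these are *Map4k4* (chr1:39900902-40026310 by RefSeq), *Il1r2* (chr1:40084692-40125230), *Il1r1* (chr1:40222480-40316201) and *Il1rl2* (chr1:40324589-40367555). They are followed by *Il1rl1* (chr1:40404864-40465418), *Il18r1* (chr1:40465552-40500854) and *Il18rap* (chr1:40515362-40551707). The stretch was chosen by its position and with 1 readout known, because it includes 39.86 Mb, where the wild-type library had a pile of contacts with a segment of chromosome 8. That pile is therefore given as a description only. Cis pairs, those with both ends on chromosome 1, entered when the ends lay at least 5 kb apart and at least 1 end fell in the stretch, which gave 104450 of 3255028 pairs in wild-type cells and 81514 of 2509097 in *Lin28a* knockout cells.

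The study asked whether chromatin folding differs between mouse embryonic stem (ES) cells with and without *Lin28a*, the gene of an RNA-binding protein. In Hi-C, chromatin is cross-linked, cut and religated, so that sequencing both ends of a ligated fragment records which loci were near each other. There was 1 library of ES cells called wild-type and 1 of *Lin28a* knockout ES cells, both grown on gelatin with a feeder layer of mouse embryonic fibroblasts in medium with leukaemia inhibitory factor and 2 kinase inhibitors (LIF/2i). The study's methods describe knockout ES clones made by CRISPR/Cas9 cuts in the second *Lin28a* exon, and its results also name ES cells from *Lin28* knockout mice. The labels give neither the parental line nor the clone of the Hi-C cells. The labels speak of replicates but the pairs come as 1 list a group, so a difference between groups is a difference between 2 libraries, and every interval below is a 95% interval of counting error alone. Contacts measure neither *Lin28a* nor any RNA, and genotypes were taken from the labels. Fibroblast feeders could have contributed DNA, and their share was not measured.

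Receptors of the interleukin 1 family sit on the cell surface and pass on signals of inflammation. *Il1r1* encodes the signalling receptor for interleukin 1, and *Il1r2* encodes a decoy that binds the cytokine without signalling. *Il1rl2* encodes the receptor for the interleukin 36 cytokines and *Il1rl1* the receptor for interleukin 33, also called ST2. *Il18r1* and *Il18rap* encode the chains of the interleukin 18 receptor. *Map4k4*, the first gene of the run, is not a receptor but encodes a serine/threonine kinase of the Ste20 family. These receptors are best known from immune and barrier cells. Mammalian chromosomes fold into domains that are often bounded by the DNA-binding protein CTCF. On a larger scale, active chromatin (compartment A) and inactive chromatin (compartment B) contact their own kind.

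The bases that bear on the domains of the cluster are matches to the core of the CTCF consensus, the 1 motif searched, on both strands. They are shown because 3 of them lie within 1 bin of 25 kb of a domain boundary described below, at *Tmem182* or at *Il18rap*. The boundary at *Il18rap* is a shallow one that the wild-type library alone lacked. The stretch held 11 matches, in 11 of its 72 bins, and 8.72% of all bins of the compared part of the chromosome held one. The capitals mark the 12 bases of the core, read 5′ to 3′ on the strand of the match, with 10 bases to either side. Sequences are from the RefSeq copy of GRCm38.
Site in an Il18rap intron, chr1:40544841-40544872, - strand: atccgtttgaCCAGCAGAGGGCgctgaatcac
Site before Tmem182, between genes, chr1:40802945-40802976, + strand: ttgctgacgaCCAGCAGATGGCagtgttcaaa
Site in a Tmem182 intron, chr1:40844819-40844850, - strand: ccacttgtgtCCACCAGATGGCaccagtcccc
Another pair of matches lay inside the cluster and away from every boundary, both on the + strand.
Site before Il1r1, between genes, chr1:40211401-40211432, + strand: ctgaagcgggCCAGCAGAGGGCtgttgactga
Site in an Il1r1 intron, chr1:40256881-40256912, + strand: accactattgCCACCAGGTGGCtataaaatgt
A match of letters is no measure of binding. Over all 212 boundaries of the compared part, 31.6% had a match within 1 bin, and 22.6% of all 75 kb stretches had one. No match lay within 1 bin of the boundary at *Il1r2*, of that by *Rnf149* or of that between *Il1rl2* and *Il1rl1*.

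The stretch took a like share of contacts in both libraries. It made up 3.21% (3.19 to 3.23) of wild-type cis pairs and 3.25% (3.23 to 3.27) of knockout cis pairs. Knockout over wild-type gave 1.012 (1.003 to 1.02), and over 48 tiles of 1.8 Mb along the compared part this ratio ran from 0.968 to 1.06 with a median of 1.02. None of the 72 bins differed in cis ends by 25% or more of the lower value (0 bins, background 0.0288% of all bins). Ratios of single bins lay between 0.902 and 1.15. Of the 7 genes, *Il18r1* had the highest ratio of cis ends, 1.09 (1.03 to 1.16), on 2561 wild-type and 2157 knockout ends, and the other 6 lay between 0.974 and 1.01. Averaged over genes, coverage was also alike along the run. Single bins of the stretch varied more, from 1060 to 2790 cis ends in wild-type cells and from 807 to 2069 in knockout cells. Each gene, counted with up to 5 kb before its start but none of the gene before it, had from 71.2 cis ends per kb at *Il1r1* to 82.5 at *Il1r2* in wild-type cells and from 54.4 to 62.3 in knockout cells.

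Most contacts of the cluster left it. Both ends lay inside the stretch in 26.8% (26.6 to 27.1) of wild-type pairs and 26.3% (26.0 to 26.6) of knockout pairs, a difference of -0.554 percentage points (-0.958 to -0.150) that depended on the pairs counted. It was -1.78 when pairs with an end outside the compared part were left out, and -0.264 (-0.660 to 0.132) with a smallest distance of 20 kb, where the interval included 0. Tiles of the same length differed by -0.95 to 1.84 percentage points. The libraries differed at long range. Pairs over 30 Mb made up 20.1% of the cis pairs of the stretch in wild-type cells and 15.9% in knockout cells, and over the whole compared part the same classes held 21.6% and 17.2%. Pairs from 2 to 10 Mb made up 17.1% and 18.8% in the stretch, and 12.2% and 13.5% over the whole compared part. A pair that leaves the stretch is counted there by either end, which raises the share of long pairs in any short stretch. These shares can be compared between the libraries but not between the stretch and the whole part. The long-range difference of the stretch was thus also present in the compared part as a whole.

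The contact maps of both libraries were divided at like places. An insulation score was read for each 25 kb bin as the log2 of the number of pairs that span it within 250 kb, over the mean of all bins, so that low values mark boundaries. The sum of both libraries gave 5 minima in the stretch. By prominence, the depth relative to the higher ground on both sides, 3 were deep and 2 shallow. Taken alone, the wild-type library lacked the minimum at *Il18rap* and had the first of them 1 bin later, and the knockout library had the first 1 bin earlier. The deepest lay at chr1:40825001-40850000, inside *Tmem182*, a muscle membrane protein gene, with a score of -0.67 (-0.77 to -0.56) on 749 wild-type pairs and -0.56 (-0.68 to -0.45) on 631 knockout pairs. Its prominence stood at the 90.1 percentile of the 212 boundaries, and its summed score ranked 57 from the lowest. The knockout score was 0.10 higher (-0.05 to 0.25), an interval that includes 0. With bins of 50 kb it was 0.19 higher (0.03 to 0.35), an interval that does not. With windows of 500 kb it was 0.007 higher (-0.09 to 0.11) and in balanced maps 0.015 higher (-0.14 to 0.17). With wild-type pairs thinned to the knockout number it was 0.05 higher (-0.11 to 0.22). In the 4 bins of 25 kb just before the minimum it was higher by 0.16 to 0.20.

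The second deep minimum separated *Map4k4* from the receptors. It lay at chr1:40075001-40100000 and held the start of *Il1r2*, the decoy receptor gene. The score was -0.49 (-0.59 to -0.39) in wild-type cells and -0.52 (-0.63 to -0.41) in knockout cells. Each library had 2 sequencing runs, and the larger and the smaller run gave -0.49 and -0.53 in wild-type cells and -0.51 and -0.68 in knockout cells. With windows of 500 kb the scores of this bin were -0.02 and 0.0014, so its depth was not seen at that width. The third, at chr1:39575001-39600000 by the ubiquitin ligase gene *Rnf149*, bounded a dense block at the start of the stretch and had scores of -0.09 and -0.13. These scores were near those of the shallow minima, and it counts as deep by its prominence of 0.72. In balanced maps its scores were -0.44 and -0.46.

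The shallow minima lay within the receptor run. The first, at chr1:40375001-40400000, fell between *Il1rl2* and *Il1rl1*, with 0.01 in wild-type cells and -0.10 in knockout cells, a difference of -0.11 (-0.24 to 0.02). The difference was -0.13 with windows of 500 kb (-0.21 to -0.05) and -0.13 without the smaller runs (-0.26 to -0.0044), both with an interval below 0, and 0.04 (-0.14 to 0.22) with windows of 150 kb. The other, at chr1:40525001-40550000, fell on *Il18rap*, with -0.04 and -0.08. Their prominences were 0.16 and 0.12, near the least of 0.1 that a minimum needed. Across the stretch the knockout score was lower in 49 bins and higher in 23, by -0.17 to 0.20, and 0 of 72 bins differed by more than 0.2 (background 4.91% of all bins). With a window of 150 kb in place of 250 kb, 9 bins did, and 11.3% of all bins. The median size of the difference was 0.06 in the stretch and 0.06 over all bins.

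**Figure D1:**
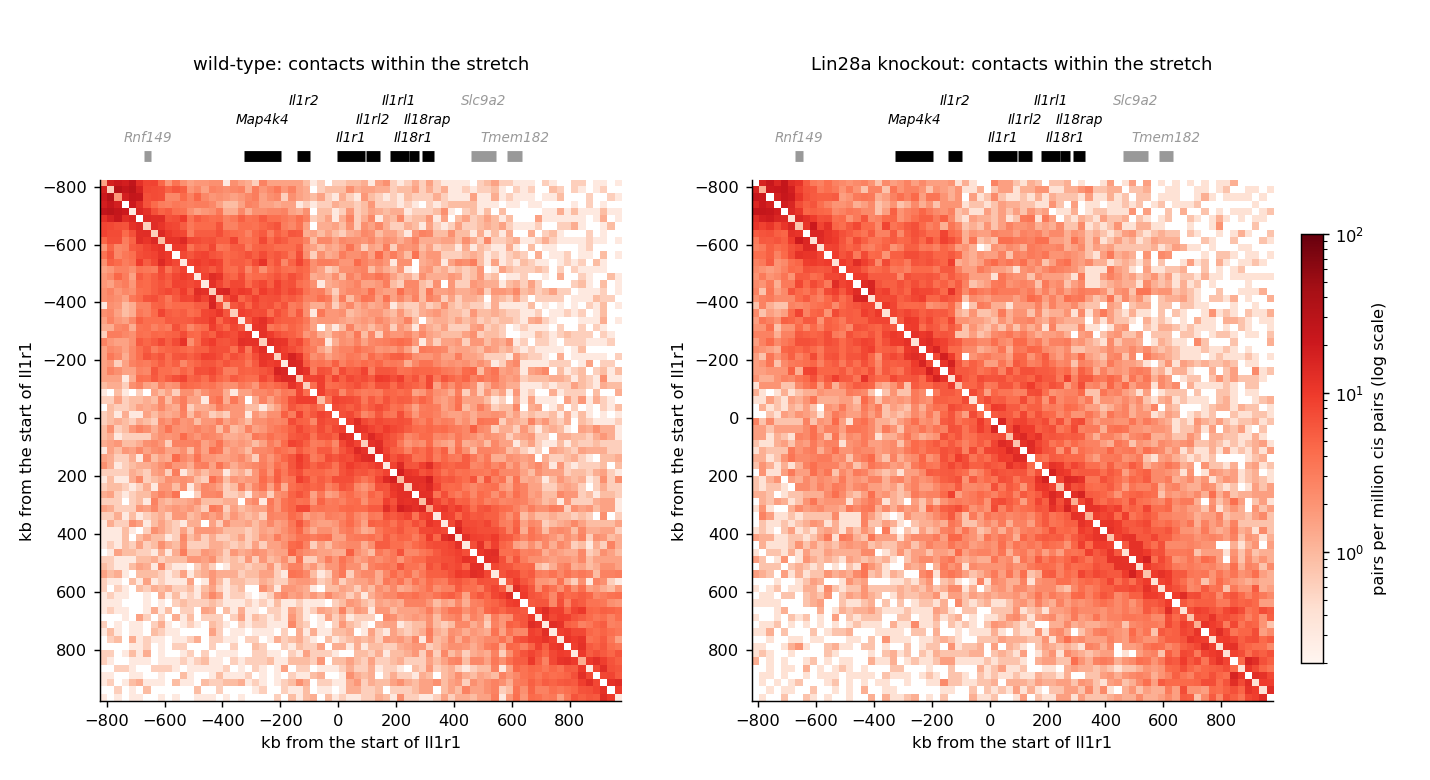
Contact maps of the stretch in wild-type (left) and Lin28a knockout (right) cells; both axes give the distance in kb from the start of Il1r1, and the colour gives pairs relative to all cis pairs of the library per 25 kb square on a log scale, with white for squares without a pair. Bars above each map show the 7 genes (black) and neighbours (grey), and both maps show the Map4k4 block ending at Il1r2 and a run from Il1r2 to Tmem182.

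**Figure D2:**
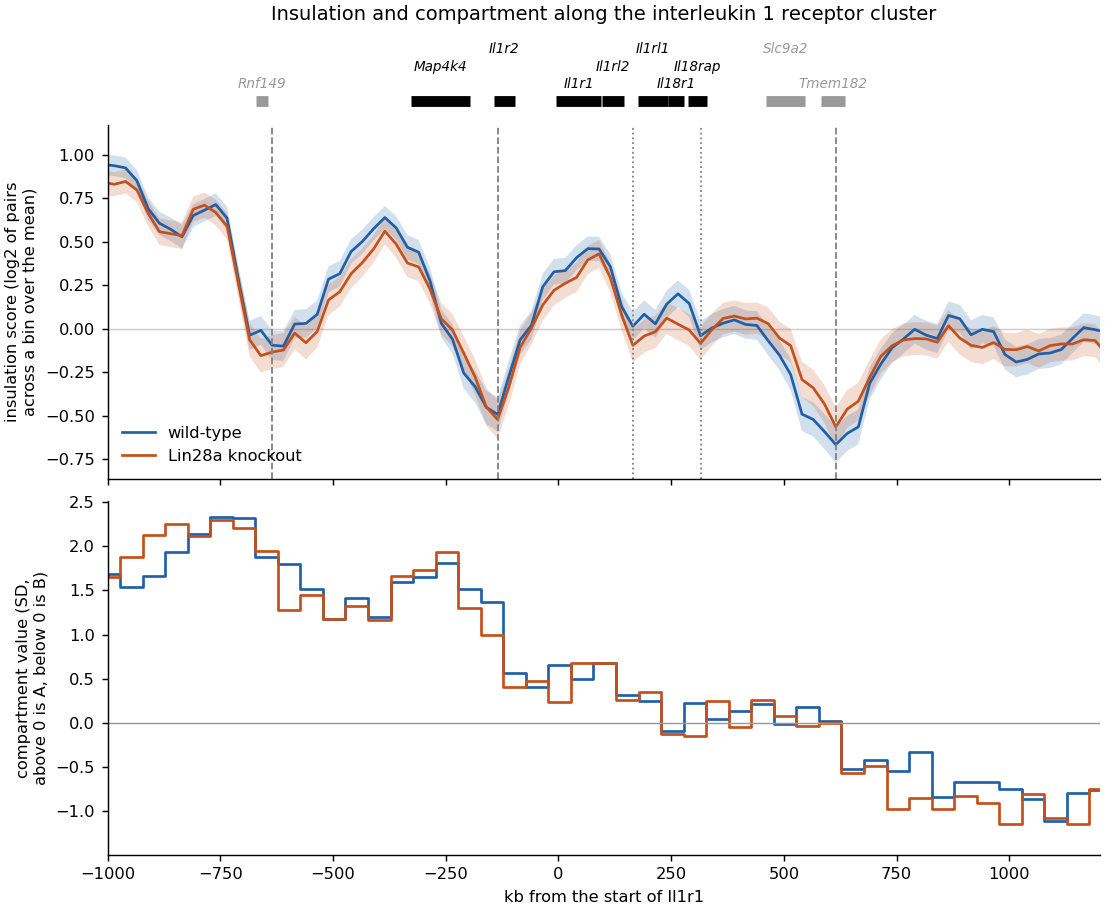
Insulation score (upper panel, log2, 25 kb bins, shaded 95% counting error) and compartment value (lower panel, SD units, 50 kb bins) against the distance in kb from the start of Il1r1, with genes on top. Dashed lines mark the 3 deep and dotted lines the 2 shallow minima of the summed map; the compartment value falls from above 2 to below 0 along the stretch in both libraries, and wavers about 0 from Il18r1 to Tmem182.

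The minima cut the stretch into 6 blocks, with *Map4k4* in the second, *Il1r2*, *Il1r1* and *Il1rl2* in the third, *Il1rl1*, *Il18r1* and the start of *Il18rap* in the fourth, and the rest of *Il18rap* with the sodium exchanger genes *Slc9a4* and *Slc9a2* in the fifth. Contacts within and between blocks were set against the mean of equal distance along the compared part. Contacts across the *Tmem182* boundary were the lowest. From the receptor run and the exchangers together (chr1:40075001-40825000) into the last block they stood at 0.686 of the mean in both libraries, with a ratio of 1.00 (0.938 to 1.07). From the block of *Il1r2*, *Il1r1* and *Il1rl2* alone they stood at 0.659 and 0.563, a ratio of 0.853 (0.739 to 0.985). *Map4k4*'s block contacted the last block at 0.615 (0.557 to 0.677) in wild-type cells and 0.609 (0.547 to 0.676) in knockout cells. Within the receptor run and the exchangers contacts stood at 1.07 and 1.04, with a ratio of 0.972 (0.938 to 1.01). In balanced maps they stood at 1.01 and 0.960, a ratio of 0.952 (0.919 to 0.987). Contacts from there across the *Tmem182* boundary stood at 0.635 and 0.609 in balanced maps.

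The boundary at *Il1r2* was more open. Contacts across it, between *Map4k4*'s block and the block of *Il1r2*, *Il1r1* and *Il1rl2*, stood at 0.957 (0.917 to 0.999) and 0.982 (0.936 to 1.03). One block further on, with *Il1rl1*, *Il18r1* and the start of *Il18rap*, *Map4k4*'s block stood at 1.24 (1.15 to 1.33) in wild-type cells and 1.30 (1.20 to 1.40) in knockout cells. The more distant receptor block was thus above the mean of its distance and the adjacent one was not, in both libraries. The densest block was the first, before *Map4k4*, at 2.01 (1.90 to 2.13) and 1.90 (1.78 to 2.03). This block also had the most cis ends per kb of any block, at 96.2 and 72.7. The mean of equal distance accounts for distance but not for coverage, and the part of coverage in these values was not tested. Knockout over wild-type ran from 0.816 (0.595 to 1.11), between the first and the last block, to 1.08 (0.817 to 1.43), between the first and the fourth. The interval excluded 1 in 3 of the 21 combinations, each with the knockout lower, against 9.16% of the like combinations over the compared part. These were the 0.853 across *Tmem182* given above, 0.909 (0.829 to 0.995) between the fourth and the fifth block, and 0.951 (0.908 to 0.996) within the block of *Map4k4*.

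The genes on either side of the boundaries differed in the direction of their partners. As the log2 of partners up to 300 kb after the gene over partners up to 300 kb before it, *Map4k4* stood at -0.81 (-0.95 to -0.68) in wild-type cells and -0.60 (-0.75 to -0.46) in knockout cells, so most of its partners lay before it and away from the receptors. *Il1r2*, on the boundary, stood at 0.23 (0.04 to 0.42) and 0.03 (-0.19 to 0.25), near balance in knockout cells. *Il1r1*, after the boundary, stood at 0.31 (0.17 to 0.46) and 0.49 (0.32 to 0.65), and its partners lay towards *Il18rap*. *Il1rl2*, the last gene before the shallow minimum, pointed back to *Il1r1* with -0.50 (-0.70 to -0.31) and -0.79 (-1.02 to -0.56). *Il1rl1*, just after it, stood at 0.18 and 0.15, and *Il18r1* at 0.01 and -0.03, near balance. *Il18rap* stood at -0.38 (-0.57 to -0.18) in wild-type cells and -0.08 (-0.31 to 0.14) in knockout cells.

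Contacts between the 7 genes themselves were led by *Il1r2*. Between *Il1r2* and *Il18rap*, at opposite ends of the receptor run and 429 kb apart by their middles, the wild-type library had 67 pairs and the knockout library 44. That was 3.0 (2.32 to 3.81) and 2.43 (1.77 to 3.26) times the number expected at equal distance. Set against 1122 pairs of protein-coding genes of the compared part within 650 kb of each other, with 20 or more expected pairs in each library, these values stood at the 99.6 and 98.3 percentiles. Of the 21 pairs among the 7 genes, 19 belong to that set. *Il1r2* with *Il18rap*, at 18.1 expected knockout pairs, and *Il1r2* with *Il18r1*, at 17.2, do not. Between the 25 kb bins of their gene starts, *Il1r2* and *Il18rap* stood only at 1.61 and 1.16, on 12 and 7 pairs. The expected number accounts for distance but not coverage. These genes had the most cis ends per kb of the 7, at 82.5 and 81.8 in wild-type cells. *Il1r2* also stood high with *Il1rl1*, at 2.29 (1.87 to 2.78) and 1.89 (1.47 to 2.41), and with *Il18r1*, at 2.15 (1.57 to 2.87) and 1.86 (1.27 to 2.63). With its nearer neighbours it stood at 1.35 and 1.21 with *Il1r1* and at 1.56 and 1.87 with *Il1rl2*.

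Gene bodies are wide, and the contact was located in 30 kb squares, a search made after these values had been seen. Among squares 150 kb or more apart between these genes, the one with the highest value in the summed map joined chr1:40080001-40110000, which holds the *Il1r2* start, to chr1:40530001-40560000, which holds the end of *Il18rap* and the CTCF match printed above for its intron. It had 39 wild-type pairs, 3.83 times the number expected (2.72 to 5.23), and 31 knockout pairs, 3.74 times (2.54 to 5.31). Coverage does not enter the number expected, and the 25 kb bin at the *Il1r2* start had 2417 wild-type and 1857 knockout cis ends. The square was chosen for its height in both libraries together, so that it is high in each is no separate observation. Knockout over wild-type was 0.978 (0.590 to 1.61), too wide to tell the libraries apart.

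The lowest wild-type value was that of *Il1rl2* with *Il18r1*, at 0.674 (0.458 to 0.956) and 0.870 (0.591 to 1.24) in knockout cells. *Map4k4* and *Il1r1*, on either side of *Il1r2*, stood at 0.723 (0.612 to 0.848) and 0.765 (0.637 to 0.912). *Il1rl2* and *Il1rl1*, on either side of the shallow minimum, stood at 0.747 (0.598 to 0.923) and 0.707 (0.543 to 0.905) with their middles 89.1 kb apart. Other pairs across the same minima were not low, such as *Il1r1* with *Il1rl1* at 1.24 and 1.20 and *Map4k4* with *Il18rap* at 1.14 and 1.04. The chains of the interleukin 18 receptor, *Il18r1* and *Il18rap*, stood at 1.02 (0.821 to 1.26) and 1.19 (0.944 to 1.48), with intervals that include the mean of their distance.

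**Figure D3:**
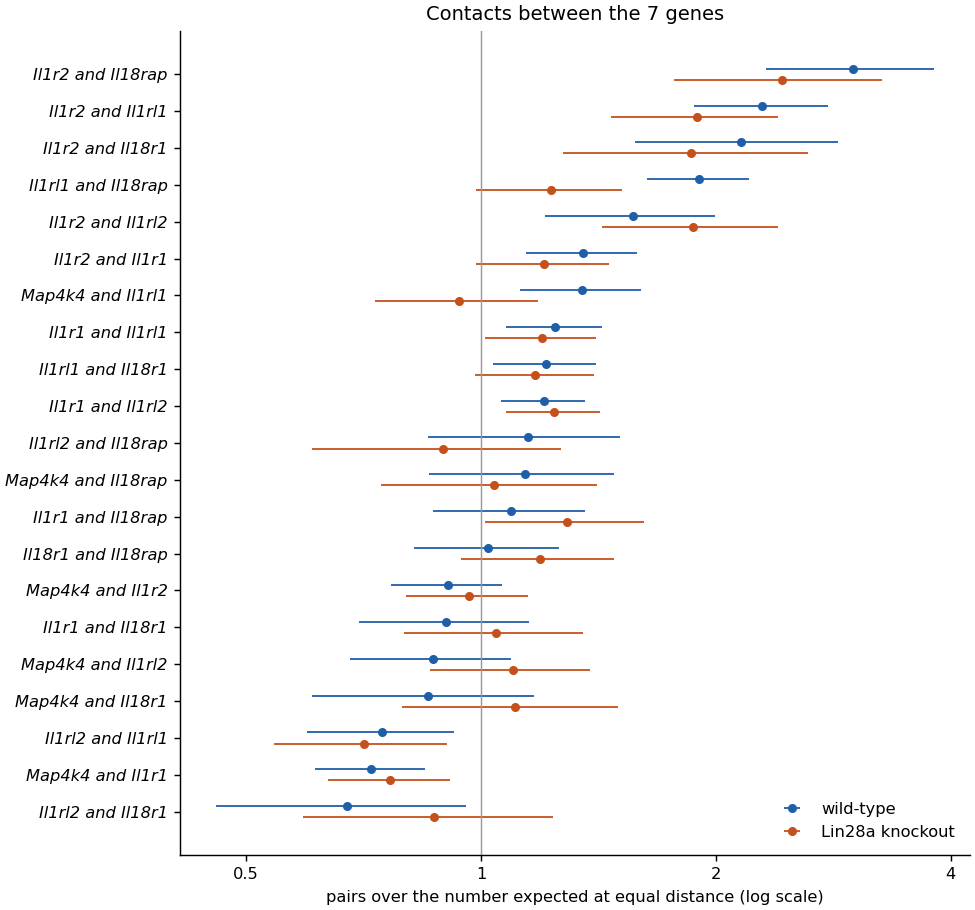
Contacts between each pair of the 7 genes in wild-type (blue) and Lin28a knockout (orange) cells, as pairs over the number expected at equal distance (horizontal axis, log scale; bars are 95% Poisson intervals of the counts), ordered by the wild-type value. The 3 highest pairs join Il1r2 to Il18rap, Il1rl1 and Il18r1, and the intervals of the libraries lie apart only for Il1rl1 with Il18rap.

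Between the libraries, 1 of 21 pairs of genes passed a fold of 1.5 (background 6.06% of the 1122 gene pairs). It was *Il1rl1* with *Il18rap*, at 1.90 (1.63 to 2.21) on 176 wild-type pairs and 1.23 (0.986 to 1.51) on 88 knockout pairs, a ratio of 0.646 (0.494 to 0.839). With 25 kb bins at the gene starts in place of gene bodies this ratio was 0.799 (0.368 to 1.67), and on these smaller counts 12 of the 21 pairs passed the fold, as did 35.8% of 2014 pairs of gene start bins up to 600 kb apart in the compared part. *Map4k4* with *Il1rl1* had a ratio of 0.696 (0.513 to 0.938), on 126 and 71 pairs. At the gene starts it had 2 and 1 pairs, too few to check the ratio. By gene bodies, *Il1rl1* with *Il18rap* and *Map4k4* with *Il1rl1* were the 2 of 21 pairs with an interval that excluded 1, both lower in knockout cells. Of all 1122 gene pairs 5.97% had such an interval, and 2.05% had one with the knockout lower. Within the body of *Il18rap* the ratio was 0.680 (0.495 to 0.927), on 125 and 64 pairs. Summed over the 21 pairs the genes stood at 1.15 and 1.12, a ratio of 0.969 (0.909 to 1.03), and a difference over the cluster as a whole was not detectable at this depth. The median ratio of the 21 pairs was 0.971, and that of all gene pairs 1.01.

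The cluster lay across the passage from compartment A to compartment B. On the compartment scale, where values above 0 are A and the unit is 1 SD of all bins, the stretch began at 2.21 and 2.17 in its first block (wild-type and knockout) and ended at -0.53 and -0.75 in its last. *Map4k4* stood at 1.68 and 1.72, at the 94.3 and 93.5 percentiles of all bins. *Il1r2* followed at 0.92 and 0.67, *Il1r1* at 0.58 and 0.54, and *Il1rl2* at 0.54 and 0.53. *Il1rl1* stood at 0.17 and 0.24, *Il18r1* at -0.08 and -0.13, and *Il18rap* at 0.22 and -0.13. The order was thus the order of the genes along the chromosome as far as *Il18r1*, with the largest step between *Map4k4* and *Il1r2* and values near 0 from *Il1rl1* on.

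Between the libraries 2 of 36 bins of 50 kb differed by more than 0.5 SD (background 3.46% of all bins), both lower in knockout cells, 1 at *Creg2* before *Map4k4* and 1 in the gene-poor last block. None of them lay on a receptor gene. The sign differed in 5 of the 36 bins, against 5.42% of all bins. All of them lay from *Il18rap* to *Tmem182*, where values lie near 0. Over the alternatives the knockout value of *Il18rap* ran from -0.17 to 0.17.

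Far contacts are among the pairs behind the compartment value, so a like order in both is no separate observation. Counting far contacts, with partner bins classed by the same kind of compartment value, gave a like order in wild-type cells. There the exception was *Il1rl2*, which stood above *Il1r2* and *Il1r1*. In knockout cells *Il1r1* also stood above *Il1r2*, and *Il18rap* above *Il1rl1*. Contacts of 2 Mb or more were split by whether the partner bin was A or B in the summed map, and the log2 of A over B partners was 0.88 (0.78 to 0.98) for *Map4k4* in wild-type cells and 0.87 (0.75 to 0.98) in knockout cells. It was 0.44 and 0.31 for *Il1r2*, 0.38 and 0.33 for *Il1r1*, and 0.53 and 0.40 for *Il1rl2*. It was 0.20 and 0.15 for *Il1rl1*, 0.10 and 0.09 for *Il18r1*, and 0.25 and 0.22 for *Il18rap*. The intervals of *Map4k4* lay above those of every receptor gene, whereas neighbours in the receptor run mostly overlapped. Knockout minus wild-type was below 0 for each of the 7 genes, from -0.13 to -0.01, and every one of these intervals included 0. The median difference of the 48 tiles of 1.8 Mb was also below 0, at -0.03.

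Over the whole stretch the score of far contacts was 0.42 (0.40 to 0.45) in wild-type cells and 0.33 (0.30 to 0.36) in knockout cells, a difference of -0.10 (-0.14 to -0.06). Tiles of the same length along the compared part differed by -0.29 to 0.19, with quartiles at -0.07 and 0.04, so the stretch lay below the lower quartile of tiles and within their range. The last block, beyond *Tmem182*, had the largest difference of the 6, from -0.16 to -0.35, or -0.19 (-0.28 to -0.10). The block of *Il1r2*, *Il1r1* and *Il1rl2* differed by -0.11 (-0.21 to -0.01). Far contacts of the knockout library included fewer pairs over 30 Mb, as given above, and the part of this in the score was not tested. Over the alternatives the difference of the stretch ran from -0.13 to -0.09. The scores themselves depended on the distance, and with contacts of 5 Mb or more they were -0.06 and -0.19. A score of 0 is not neutral, because 957 bins were B and 740 were A. The median of all bins was -0.25 and -0.28 at 2 Mb or more and -0.29 and -0.32 at 5 Mb or more, below the stretch in each case.

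Partners on other chromosomes do not enter the compartment value. Trans pairs made up 33.0% (32.8 to 33.2) of pairs of the stretch in wild-type cells and 32.3% (32.1 to 32.6) in knockout cells. The 40.1% of the compared part in both libraries is no like measure. Over the whole part each cis pair counts once, whereas a cis pair that leaves the stretch would count for both places it joins. As the log2 of partners in the most gene-rich 1 Mb windows over partners in the most gene-poor, from a split of all windows into 3 equal classes by gene count, the stretch stood at 0.51 (0.48 to 0.54) and 0.48 (0.45 to 0.51), above the compared part at 0.33 and 0.31. *Map4k4* stood highest of the 7 genes, at 0.69 (0.58 to 0.79) and 0.69 (0.57 to 0.81). *Il1r2* stood at 0.48 and 0.47, *Il1r1* at 0.43 and 0.29, *Il1rl2* at 0.46 and 0.34, *Il1rl1* at 0.24 and 0.28, and *Il18rap* at 0.26 and 0.36.

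*Il18r1* stood at 0.24 (0.03 to 0.46) on 378 gene-rich and 320 gene-poor wild-type pairs and -0.14 (-0.39 to 0.12) on 234 and 257 knockout pairs, a difference of -0.38 (-0.71 to -0.04). It was the 1 gene of 7 with an interval of the difference that excluded 0, against 12.7% of the 465 protein-coding genes of the compared part with 50 or more pairs of each class. The interval of the whole stretch, at -0.03 (-0.07 to 0.02), included 0. The last block differed by -0.16 (-0.27 to -0.05), and the first block by 0.12 (0.01 to 0.24), in the opposite direction. Chromosome 6 took 6.74% of all trans ends in wild-type cells and 8.38% in knockout cells, and chromosome 8 took 5.41% and 7.23%. Without these chromosomes and Y the difference of the stretch was -0.01.

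**Figure D4:**
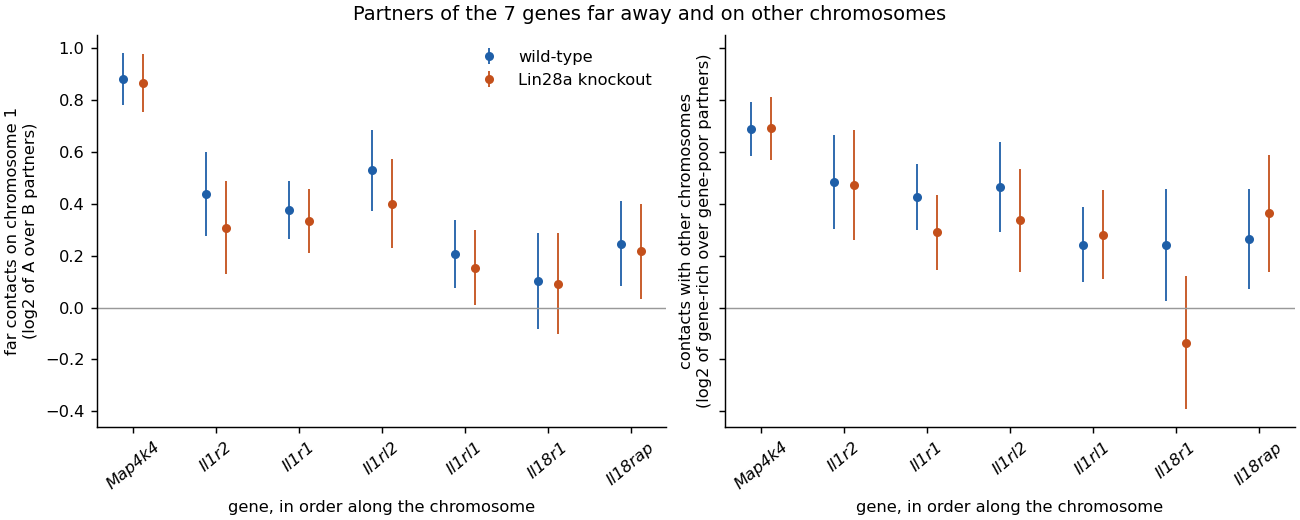
Partners of the 7 genes in wild-type (blue) and Lin28a knockout (orange) cells, in the order of the genes along the chromosome. The left panel shows the log2 of A over B partners at 2 Mb or more on chromosome 1, the right panel the log2 of gene-rich over gene-poor partners on other chromosomes, with 95% log-normal intervals of the counts; Map4k4 is highest in both panels and both libraries, and the intervals of neighbours in the receptor run mostly overlap.

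The pile that brought the stretch to attention joined it to chr8:123425804-123434531, a segment of 8728 bp with direct repeats of 523 bp at its ends. RefSeq has no gene on it, and the nearest after it, *Def8*, starts 8.43 kb away. The segment had 391 pairs with the compared part of chromosome 1 in wild-type cells, of which 133 fell in the stretch, and 57 pairs in knockout cells, of which 2 did. Outside the stretch it had 258 and 55 pairs, so the libraries also differed over the rest of the compared part. The 100 kb around the segment on chromosome 8 had 125 pairs and 131 pairs, of which 3 and 2 fell in the stretch. The sequence around the segment thus had no such pile in either library. The wild-type pile was carried by both sequencing runs, 122 and 11 pairs, and 98 of the 133 pairs had a mapping quality of 30 or more at both ends.

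Along chromosome 1 the pile was centred before *Map4k4*. The 116 wild-type pairs within 500 kb of 39.86 Mb had their median at 39849175, which is 51.7 kb before the start of *Map4k4*, and their middle 50% of positions spanned 39.74 to 39.95 Mb. Pairs per Mb fell from 265 within 100 kb of 39.86 Mb to 117 up to 250 kb, 56.0 up to 500 kb, 30.0 up to 1 Mb and 2.44 beyond 10 Mb. Beyond 10 Mb the knockout library had 0.605 pairs per Mb. The 4 combinations of strands had 31, 37, 25 and 40 wild-type pairs. Among the genes, *Map4k4* had 19 of the pairs, *Il1rl2* had 7, *Il1r2* and *Il1r1* had 4 each, *Il1rl1* had 3, and *Il18r1* and *Il18rap* had 2 each. In the knockout library *Map4k4* had 1 pair and the 6 receptor genes had 0.

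The pile can be set beside the blocks of the cluster. Of its wild-type pairs in the stretch at least 20 kb from the centre, 63.0% lay in the block of *Map4k4*, 16% in that of *Il1r2*, *Il1r1* and *Il1rl2*, 5.04% in that of *Il1rl1* and *Il18r1*, and 1.68% beyond *Tmem182*. Cis pairs of the 25 kb bin at the centre of the pile were split among the same blocks as 68.6%, 12.4%, 3.47% and 2.74% in wild-type cells, and as 62.0%, 13.4%, 8.12% and 2.62% in knockout cells. The centre lies within the block of *Map4k4*, the longest of the 6, so that its share leads was given beforehand. No base position can be read from a pile this wide, so no sequence is shown for its centre.

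The stretch held a second pile of the opposite layout, in both libraries, which was found after the values had been seen. A short piece at chr1:40915194-40917091, beyond *Tmem182*, is a run of 1898 bp that the reference marks as repeat sequence. It had 142 trans pairs in wild-type cells and 174 in knockout cells. Of these, 73 and 95 went to chromosome 6 within 2 Mb of 5.20 Mb, which is 51.4% and 54.6%. The 100 kb around the piece had 2271 and 1723 trans pairs, of which 5 and 3 went there. Squares of 5 kb on chromosome 1 by 500 kb on another chromosome had 10 pairs or more in 18 cases in wild-type cells and 12 in knockout cells, and this piece gave the second highest and the highest count of the compared part, with 36 and 43 pairs.

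On chromosome 6 the gene nearest to the middle of the partners, 5.60 kb away, was *Pon1*, which encodes the serum enzyme paraoxonase. The middle 50% lay between 4.93 and 5.46 Mb in wild-type cells and between 4.71 and 5.39 Mb in knockout cells. Pairs per Mb were 70 and 80 within 100 kb of that middle, and 60 and 93.3 from 0.1 to 0.25 Mb. They were 48 and 40 up to 0.5 Mb, 10 and 24 up to 1 Mb, and 3.50 in both from 1 to 2 Mb. These counts are not scaled to depth, and the compared part had 2305857 wild-type and 1765282 knockout trans pairs. Of all trans ends, chromosome 6 took 6.74% and 8.38%, as given above. A mapping quality of 30 or more at both ends held for 45 of 73 and 54 of 95 pairs, and the smaller sequencing runs gave 10 and 2 of them. Both libraries thus held this pile, whereas the pile at 39.86 Mb had 133 wild-type and 2 knockout pairs.

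**Figure D5:**
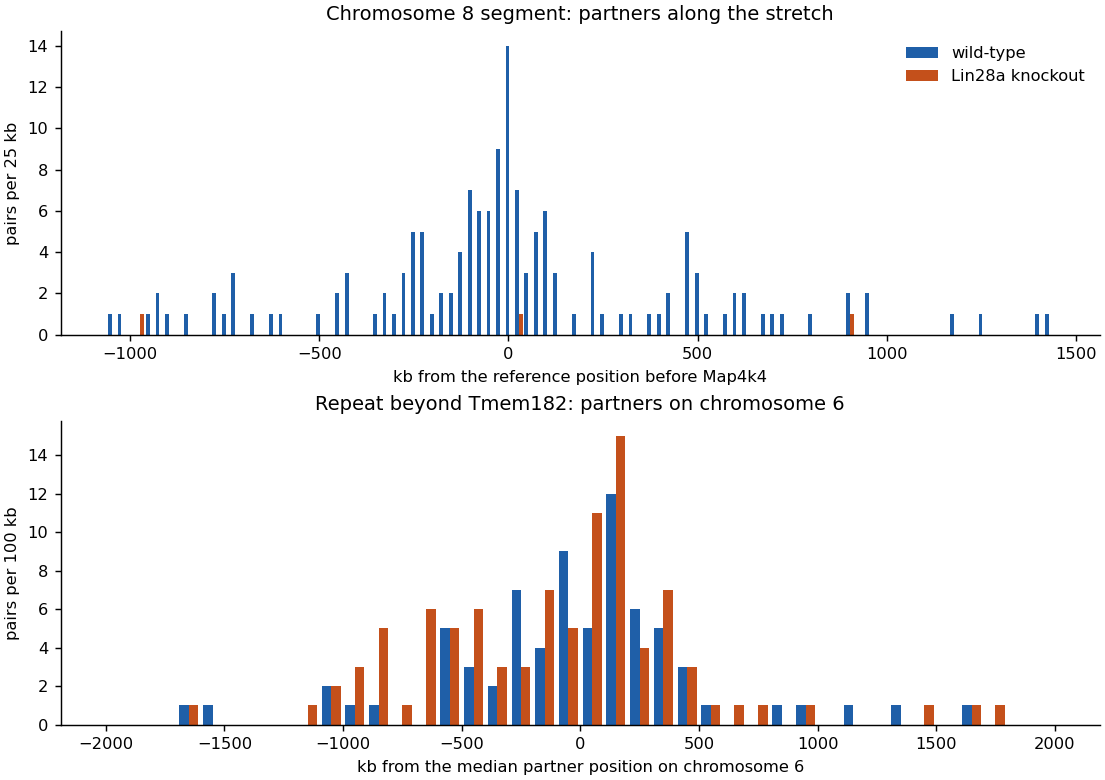
Upper panel, pairs of the chromosome 8 segment per 25 kb of chromosome 1, against the distance in kb from 39.86 Mb; lower panel, pairs of the repeat beyond Tmem182 per 100 kb of chromosome 6, against the distance in kb from their median position, both for wild-type (blue) and Lin28a knockout (orange) cells. The upper panel runs past both ends of the stretch, in which lie 133 wild-type and 2 knockout pairs, while the lower pile has 73 wild-type and 95 knockout pairs.

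The other genes of the pathway lie on other chromosomes, and were read by their trans contacts, as the log2 of partners in A bins over partners in B bins of chromosome 1. The median of all windows was 0.07 in wild-type cells and 0.06 in knockout cells. The list had 22 genes in 4 roles, of which 21, all but *Il36rn*, were matched and had a usable window of 1 Mb, in 15 windows. Of these windows 11 were above 0 in both libraries, against 49.4% of all 2359 windows, and 3 were below 0 in both. Each of the 15 holds a gene, whereas all windows were taken whatever their gene content, so the backgrounds are not alike. Among the adaptors and kinases, *Myd88*, which links the receptors to the IRAK kinases, stood at 0.81 (0.63 to 0.98) in wild-type cells and 1.00 (0.81 to 1.20) in knockout cells. Among the ligands, the window of *Il1a* and *Il1b* stood at 0.37 (0.17 to 0.56) and 0.67 (0.43 to 0.92).

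The genes of receptor chains outside the cluster were split. *Sigirr*, an inhibitory receptor, stood at 0.85 and 0.92 in a window that it shares with *Tollip*. *Il1rap*, the co-receptor that *Il1r1*, *Il1rl1* and *Il1rl2* need to signal, stood at -0.36 (-0.55 to -0.18) and -0.19 (-0.39 to 0.02), and the large X-linked genes *Il1rapl1* and *Il1rapl2*, known from neurons, were also below 0 in both libraries. *Il18bp*, the soluble inhibitor of interleukin 18, stood at 0.09 and 0.30. Between the libraries 1 of 15 windows differed by more than 0.5 (background 0.975% of 2359 windows). It was that of *Il1rapl1*, at -0.65 (-0.99 to -0.31) on 113 A and 177 B wild-type pairs and -0.08 (-0.47 to 0.31) on 103 and 109 knockout pairs, a difference of 0.57 (0.05 to 1.08), which was 0.06 (-0.29 to 0.40) in windows of 2 Mb. The median difference of the 15 windows was 0.17, and that of all windows 0.01.

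The *Cd28*, *Ctla4* and *Icos* genes, another immune receptor cluster on chromosome 1, had 20.1 cis ends per kb in wild-type cells and 15.9 in knockout cells, against 73.6 and 57.2 in the stretch. *Ctla4* had only 52 and 36 cis ends, and no compartment value could be given for *Icos*. The cause of this low coverage was not tested, so the ends per kb do not measure how often these genes make contacts. From *Cd28* to *Icos* the score of far contacts was 0.85 (0.72 to 0.99) and 0.88 (0.72 to 1.03), above the 0.42 and 0.33 of the stretch.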

How the data were processed

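Contacts were measured by Hi-C in 1 library of wild-type and 1 of Lin28a knockout mouse ES cells. Per the submitters' processing notes, the authors used CASAVA 1.8, Bowtie2, HiC-Pro and the mm10 build, and deposited lists of valid pairs, each end with its position, strand and a mapping quality score (11 to 42). The restriction enzyme is not given in the sources used here. Lists are ordered by the first end and do not run to the end of the genome. Chromosome 1 from 3 to 90.75 Mb was therefore compared, with 5767991 wild-type and 4412861 knockout pairs whose first end lies there. It holds the whole stretch, and the second end of a pair may lie beyond it or on another chromosome. Each list joins 2 sequencing runs, with no label that ties a run to a replicate.

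From these pairs, shares, insulation (25 kb bins, 250 kb windows), distance-corrected contacts, a compartment eigenvector (50 kb bins) and partner ratios were computed with python 3.11.15, numpy 2.4.6, pandas 2.3.3 and scipy 1.17.1, after the scripts were tested on simulated data. Maps used pairs 20 kb or more apart. Percentages have exact binomial intervals, counts over expected have Poisson intervals, and log2 ratios of 2 counts have log-normal intervals, all at 95% and for counting error only. With 1 library a group no p-value was computed. The genes named were the 7 members, neighbours on which a boundary or bin fell, and pathway genes past the threshold with examples by role. The members and lists were chosen with earlier results of these data known. Alternatives were mapping quality, sequencing runs, smallest distance, window and bin sizes, balancing, gene starts, windows of other sizes and thinning.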

Additional observations from a re-analysis of the deposited data

Results flagged for a closer look

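The contacts between the repeat beyond *Tmem182* and chromosome 6 were singled out because they lie outside the planned comparisons and exceed the count around them. Within 2 Mb of chromosome 6 5.20 Mb there were 73 pairs in wild-type cells and 95 in knockout cells, and the 100 kb around the repeat gave 5 and 3.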

How the results depend on the processing

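With 1 library a group no value here has a replicate check, and counting error sets the least difference that could be seen. No paired analysis was possible because each group held 1 library. Over 27 results and 19 alternatives, 116 values were classed as unchanged and 7 as moved. The rules were the counting error of the reported value or 1.5 times a reported count. Among the 116 are the compartment values of *Map4k4* and *Il18rap*, which have no interval and are no counts, so neither rule measures them. In 8 cases an interval came to include or to exclude no difference, as given with the results concerned. In 5 cases a value changed sign: the score difference at the *Il1r2* minimum with windows of 500 kb and bins of 50 kb, that between *Il1rl2* and *Il1rl1* with windows of 150 kb, and the knockout compartment value of *Il18rap* in bins of 100 kb (0.05) and 250 kb (0.17). Bins of the stretch with an insulation difference over 0.2 numbered 1 without the smaller run of each library (5.32% of all bins) and 9 with windows of 150 kb (11.3% of all bins), against 0. The difference in contacts kept inside the stretch was -1.78 percentage points with both ends in the compared part. With gene starts in place of gene bodies the summed ratio of gene contacts was 0.904 and 12 pairs of genes passed the fold (35.8% of all pairs of gene start bins). With windows of 2 Mb, 0 pathway windows differed by more than 0.5 (0.167% of all windows). The score at 40.375 Mb differed by 0.04 with windows of 150 kb. The scores of far contacts of the stretch were -0.06 and -0.19 at 5 Mb or more, and the *Il1r2* minimum had scores near 0 with windows of 500 kb. The cause was not tested.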

Other observations

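A few short windows on other chromosomes had a large share of their chromosome 1 partners in the stretch; they were chosen after their values were seen. The window chr10:29695001-29700000, which holds the pseudogene *Gm10275*, had 14 of its 30 wild-type pairs and 6 of its 15 knockout pairs there, with medians at 40.37 and 40.13 Mb. The window chr14:22970001-22975000, in *Lrmda*, had 5 of 14 and 9 of 13, and chr16:72020001-72025000 had 6 of 7 and 1 of 4. By contrast the window of the ribosomal sequence *Rn18s-rs5* on chromosome 17 had 7 of 349 and 9 of 384, which is 2.01% and 2.34%, and the stretch covers 2.05% of the length compared.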
